A study of Mus musculus with 367 samples.

Results

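The levels of 9 cathepsin genes were followed across the kinds of cell sorted from healing mouse skin. The members are Ctsa, Ctsb, Ctsc, Ctsd, Ctsh, Ctsk, Ctsl, Ctss and Ctsz, 9 of the 50600 genes in the tables. They were taken as a list of family members, and all 9 were present in every table and passed the filter on low values. Large square wounds of 1.5 cm a side were made on the backs of Sm22-Cre;tdTomato mice on a mixed background (3 to 8 weeks old by the labels, 6 to 8 by the study's methods), and wound tissue was taken 12, 15 or 21 days post-wounding (PWD12, PWD15 and PWD21). In these mice the promoter of Tagln, whose product is SM22, drives Cre recombinase, and tdTomato marks the cells in which Cre has been active together with their progeny. All groups carry both alleles, no other treatment is named, and there is no unwounded group. Viable tdTomato-high cells were loaded onto a C1 microfluidic chip for cells of 17 to 25 µm, and paired-end reads of their full-length cDNA were made. Tissue of 2 to 3 mice was pooled for a time point, and whether the captures of a day came from different mice is not stated, so the spread between captures may be technical.

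Cathepsins are proteases of the lysosome, which digest proteins taken up by endocytosis or delivered by autophagy. Most are papain-type cysteine proteases made as inactive precursors, while Ctsd is an aspartic and Ctsa a serine protease. Secreted cathepsins can also cut extracellular matrix, and in myeloid cells they process antigen and the invariant chain of MHC class II.

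The tables held 367 cells in 7 captures, 3 at PWD12, 2 at PWD15 and 2 at PWD21, and 292 cells passed the filters. Values are FPKM, in which the fragments of a gene are divided by its length and by all fragments of that cell, so levels of different genes are set side by side per length. The files hold no counts, and so the fragments of each cell are an estimate from its smallest values. The median per capture was 959578 to 2368430 estimated fragments. Each cell was given a kind from 3 genes that are not cathepsins. Matrix cells had a Col1a1 of at least 1000 FPKM, an Rgs5 under 100 FPKM and a Tyrobp under 50 FPKM. Mural cells had an Rgs5 of at least 500 FPKM with a Tyrobp under 50 FPKM, and myeloid cells a Tyrobp of at least 500 FPKM. There were 198 matrix, 57 mural and 26 myeloid cells, and 11 cells met none of these limits. The median of estimated fragments was 1460270 in matrix, 1217460 in mural and 2102320 in myeloid cells.

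The names of the kinds were checked against marker lists. Col1a1, Rgs5 and Tyrobp, which define the kinds, were left out of the sums, while other markers vary with them. The summed level of the other 10 myeloid markers had a median over cells of 29798 FPKM in myeloid cells and 0 FPKM in both matrix and mural cells. The other 7 fibroblast and matrix markers had medians of 28812, 2963 and 19.9 FPKM in matrix, mural and myeloid cells, and the other 8 mural markers 0.1, 1084 and 0.27 FPKM. Markers of endothelial cells, T cells, B cells, neutrophils, keratinocytes, Schwann cells and adipocytes had medians under 1 FPKM in each kind. Among mural cells 19 of 57 also had a Col1a1 of at least 1000 FPKM, and among myeloid cells 4 of 26 did.

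Levels were averaged over the cells of a kind in a capture, and the capture was the replicate. The 16 means made of at least 3 cells, 7 of matrix, 5 of mural and 4 of myeloid cells, entered a limma fit with the capture as a block and a pseudocount of 1 FPKM. Differences are therefore on the log2(FPKM + 1) scale, and adjusted p values are those of Benjamini and Hochberg over 14022 genes. The kinds were cut on genes of the same cells, so genes that vary with Col1a1, Rgs5 or Tyrobp were more likely to pass.

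Myeloid cells held more Ctss, Ctsc and Ctsb than matrix cells and less Ctsk. By the adjusted p, 3 cathepsins were higher in myeloid than in matrix cells, against 3.05% of all genes, and 1 was lower, against 12.6% of all genes (15.7% in either direction). The capture means of 5 members, Ctsa, Ctsb, Ctsc, Ctsk and Ctss, did not overlap between these kinds, which held for 15.4% of all genes. The median log2 difference, myeloid minus matrix, was 1.36 over the 9 cathepsins and -0.85 over all genes. Among genes averaging 100 FPKM or more it was -0.23, and 27.8% were called.

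Against mural cells, 4 cathepsins were higher in myeloid cells, namely Ctss, Ctsb, Ctsd and Ctsc, against 2.12% of all genes, and none was lower (6.55% of all genes were called in either direction). The capture means of these 4 did not overlap, which held for 10.4% of all genes. The median log2 difference was 1.84 over the cathepsins and -0.58 over all genes. Among genes averaging 100 FPKM or more it was -0.32, with 16.5% called. Only 2 captures held at least 3 cells of both kinds, and the others entered through their matrix cells.

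Between mural and matrix cells 0 of 9 cathepsins passed the limma test, against 1.05% of all genes. At an unadjusted p under 0.05 there were 4 of 9, against 12.1% of all genes. Capture means of Ctsb and Ctsk did not overlap, which held for 3.05% of all genes, and both were lower in mural cells in 5 of 5 captures. The median log2 difference, mural minus matrix, was -0.95 over the cathepsins, -0.25 over all genes and 0.04 over genes averaging 100 FPKM or more.

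**Figure D1:**
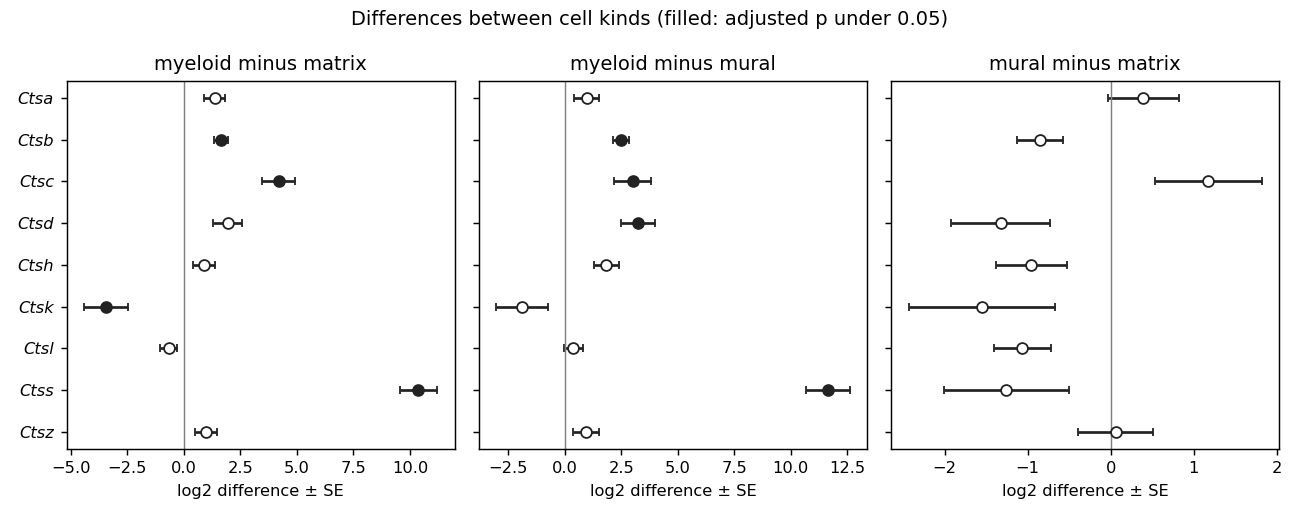
Log2 differences of log2(FPKM + 1), with bars of 1 SE, for the 9 cathepsins in the 3 comparisons of kinds, with filled points at an adjusted p under 0.05 in limma. Against matrix cells Ctss at 10.38 and Ctsc at 4.19 lie far to the myeloid side and Ctsk at -3.44 to the matrix side, and no point is filled for mural minus matrix.

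Ctss (chromosome 3, 95526786 to 95556403, plus strand, GRCm38) encodes a cysteine endopeptidase that stays active near neutral pH and trims the invariant chain. In myeloid cells it averaged 2924 FPKM in PWD12 capture 2, 2991 in PWD15 capture 2, and 1421 and 1163 FPKM in PWD21 captures 1 and 2. In matrix cells it was at 0 in 3 of 7 captures, and the others were 26.3 FPKM in PWD12 capture 3, 1.88 and 0.301 in PWD15 captures 1 and 2, and 0.787 FPKM in PWD21 capture 1. In mural cells it was at 0 in 3 of 5 captures and at most 0.448 FPKM. The lowest myeloid mean lay far above the highest mean of either other kind. The log2 difference was 10.38 (SE 0.83) against matrix cells, with an adjusted p of 4.49e-06 in limma, and 11.64 (SE 0.97) against mural cells, with an adjusted p of 1.25e-05. With levels near 0 on one side the size depends on the pseudocount, and over the alternatives the difference from matrix cells ran from 7.48 to 12.68.

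All 26 myeloid cells had some Ctss, and 23 of them at least 1000 FPKM. Ctss was above 0 in 9 of 198 matrix cells (4.55%, with a 95% interval of 2.10 to 8.45% by Clopper and Pearson) and in 2 of 57 mural cells (3.51%). Most of these were faint. In 5 matrix cells of PWD15 capture 2 the value was 0.88 to 1.69 FPKM, worth about 1 to 2 estimated fragments. The highest was a matrix cell of PWD12 capture 3, at 447 FPKM, about 1073 estimated fragments. It also held Lyz2 at 476, Fcer1g at 167 and Tyrobp at 9.96 FPKM, together with Ctsk at 777 FPKM, and it alone carried the mean of its capture. A matrix cell of PWD15 capture 1 had a Ctss of 93.7 FPKM with a Ctsk of 0.

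Ctsk (chromosome 3, 95499256 to 95509362, plus strand), the collagen-cutting cathepsin known from bone-resorbing osteoclasts, was the highest cathepsin of matrix cells. Its matrix means were 906, 829.8 and 1058 FPKM in the PWD12 captures, 732 and 838 at PWD15, and 995 and 838 FPKM at PWD21. The mural means were 438, 475 and 513 FPKM at PWD12, 262 in PWD15 capture 1 and 322 in PWD21 capture 1. All mural means lay below all matrix means. The log2 difference, mural minus matrix, was -1.55 (SE 0.88) with an adjusted p of 0.520 in limma. That fit shares its estimate of the spread with the myeloid means. The SD of the log2 means of Ctsk was 0.18 in matrix, 0.41 in mural and 4.08 in myeloid captures. In the limma fit on matrix and mural cells alone, 1 of 21 alternatives, the difference was called (adjusted p 0.0182). It was not called in the other 20.

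Myeloid means of Ctsk were uneven, at 163 FPKM in PWD12 capture 2, 469 in PWD15 capture 2, 335 in PWD21 capture 1 and 0.113 in PWD21 capture 2. The difference from matrix cells was -3.44 (SE 0.97) with an adjusted p of 0.0291 in limma, and with a capture left out it ran from -4.22 to -1.62. The smallest, -1.62 (adjusted p 0.0212), came without PWD21 capture 2, and the call was lost without PWD12 capture 2 (-3.75, adjusted p 0.0722). The difference from mural cells was -1.89, with an adjusted p of 0.360, and ran from -2.81 (without PWD21 capture 1) to -0.49 (without PWD21 capture 2). The uneven means followed a few cells. Ctsk reached 100 FPKM in 5 of 26 myeloid cells, and 4 of these were the cells with a Col1a1 of at least 1000 FPKM. Those 4 cells had a Ctsk of 573 to 1671, a Dcn of 2057 to 4827 and a Lyz2 of 735 to 7509 FPKM, transcripts that mark both kinds. The study's methods state that wells seen under the microscope to hold more than 1 cell were left out, and no further test for mixed cells was made here. In the other 22 myeloid cells the median of Ctsk was 0.17 FPKM, and 1 of 22 reached 10 FPKM. With myeloid cells limited to a Col1a1 under 100 FPKM, the difference was -6.90 from matrix and -5.43 from mural cells. This limit removes those 4 cells, and also a cell of PWD12 capture 2 (Col1a1 175 FPKM) and a cell of PWD15 capture 2 (341 FPKM). PWD15 capture 2, with the highest myeloid mean of Ctsk, then held fewer than 3 myeloid cells and left the fit. The removal itself lowers the myeloid level, so both differences are given as values with no test.

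Among mural cells Ctsk was also higher where Col1a1 was high. It reached 100 FPKM in 17 of 19 mural cells with a Col1a1 of at least 1000 FPKM, with a median of 597 FPKM, and in 16 of 38 cells below that, with a median of 52.7 FPKM. Within captures the mean was higher in the Col1a1-high mural cells in 4 of 5 captures that had both. The exception was PWD12 capture 1, with 397 FPKM in 5 Col1a1-high and 489 in 4 other cells. Over the pooled cells, the other members above 0 had higher medians in the Col1a1-high mural cells too: Ctsl (329.9 against 80.03 FPKM), Ctsb (203 against 129), Ctsa (138 against 64.2), Ctsz (97.6 against 23.1), Ctsc (77.8 against 14.8), Ctsh (70.9 against 0) and Ctsd (7.78 against 0.25 FPKM). Means within captures did not all follow. That of Ctsl was higher in the Col1a1-high cells of each capture with both, and that of Ctsz was lower in each (143 against 737 FPKM in PWD21 capture 1). That of Ctsa was lower in all but PWD12 capture 1, and that of Ctsc in PWD12 capture 3 and both later captures. Those of Ctsb, Ctsh and Ctsd were higher except in PWD12 captures 1, 3 and 2, in that order.

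**Figure D2:**
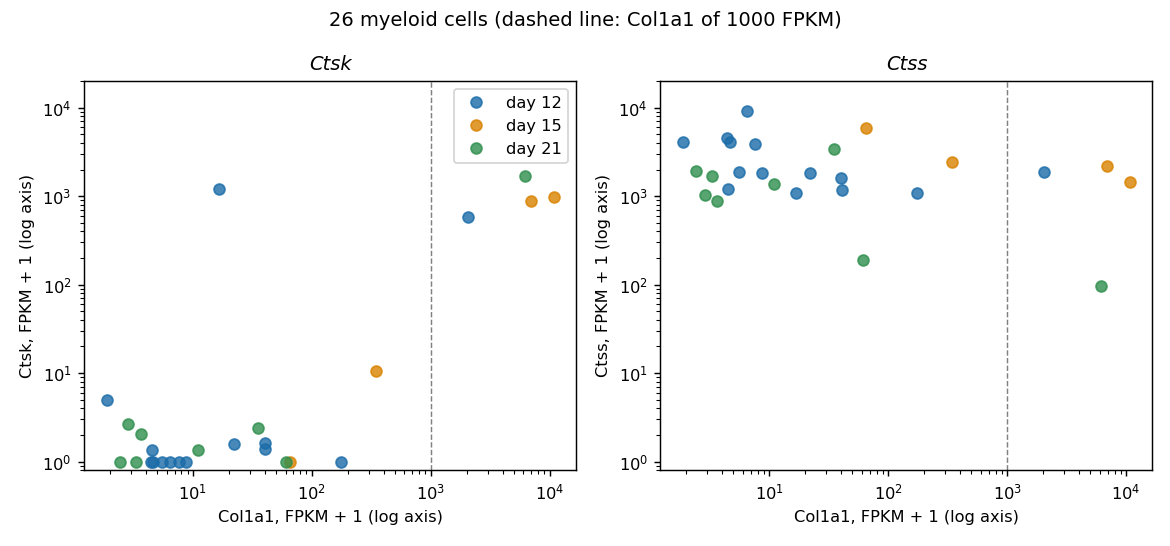
Ctsk (left) and Ctss (right) against Col1a1 in each of the 26 myeloid cells, as FPKM + 1 on log axes, coloured by day, with a dashed line at a Col1a1 of 1000 FPKM. Ctss is present in every cell, while Ctsk is above 100 FPKM in the 4 cells right of the line and in 1 cell with little Col1a1.

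Ctsk and Ctss lie next to each other on chromosome 3, on the same strand, with 17423 bases and 0 annotated genes between them. Their levels were opposite in matrix and myeloid cells. Their promoters are shown for that reason, and that of Ctsc because it was the member called in both myeloid comparisons whose matrix level varied most between captures. The windows hold 250 bases upstream of the RefSeq start (GRCm38.p6), 5′ to 3′ on the plus strand, at chr3:95498960-95499209, chr3:95526536-95526785 and chr7:88277835-88278084. Capitals mark matches on either strand and at any position to GAGGAA (a core bound by PU.1), GGGCGG (the GC box), TATAAA (the letters of a TATA box) or CACGTG (an E-box bound by TFEB and TFE3).
Ctsk: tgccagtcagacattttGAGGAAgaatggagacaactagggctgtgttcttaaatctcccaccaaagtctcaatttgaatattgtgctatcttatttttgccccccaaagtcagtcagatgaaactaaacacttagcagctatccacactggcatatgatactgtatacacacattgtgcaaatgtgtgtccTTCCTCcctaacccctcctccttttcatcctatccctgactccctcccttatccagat
Ctss: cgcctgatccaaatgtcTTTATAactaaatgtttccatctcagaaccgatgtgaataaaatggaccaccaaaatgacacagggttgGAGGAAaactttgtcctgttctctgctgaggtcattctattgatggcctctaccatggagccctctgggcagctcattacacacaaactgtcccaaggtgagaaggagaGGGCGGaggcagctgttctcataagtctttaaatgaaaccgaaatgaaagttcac
Ctsc: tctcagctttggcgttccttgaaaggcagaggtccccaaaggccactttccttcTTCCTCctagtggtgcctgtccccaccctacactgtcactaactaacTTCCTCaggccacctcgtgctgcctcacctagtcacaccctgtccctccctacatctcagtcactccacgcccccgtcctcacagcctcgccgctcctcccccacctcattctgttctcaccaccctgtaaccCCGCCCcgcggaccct
GAGGAA or its reverse complement is present in each of the 3 windows, as in 23.3% of 32817 RefSeq windows. GGGCGG is present in those of Ctss and Ctsc and in 32.7% of all windows, and TATAAA in that of Ctss and in 12.4%. The TATAAA match of Ctss, printed as TTTATA, is on the minus strand near the upstream end of the window, far from the start, so it marks letters only. CACGTG, in 6.02% of all windows, is in none of these 3 and in the windows of 3 other cathepsins, Ctsa (1 match), Ctsd (2) and Ctsl (1). The motifs do not overlap one another in the 3 windows printed. A match is no sign of binding. Windows were found for 7 of the 9 genes.

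Ctsb (chromosome 14, 63122462 to 63145923, plus strand), a cysteine protease with both endopeptidase and peptidyl-dipeptidase activity, varied little between the captures of a kind. In myeloid cells it averaged 1646, 1630.3, 1154 and 1669 FPKM in PWD12 capture 2, PWD15 capture 2 and PWD21 captures 1 and 2. In matrix cells it was 402 to 586 FPKM over 7 captures, and in mural cells 208 to 284 FPKM over 5. No 2 kinds overlapped. It was higher in myeloid cells by 1.64 (SE 0.31, adjusted p 0.00415) against matrix and by 2.49 (SE 0.36, adjusted p 0.00083) against mural cells on the log2 scale. The difference between mural and matrix cells, -0.85 (SE 0.28), had an adjusted p of 0.195 in limma. Ctsb was detected in 198 of 198 matrix, 53 of 57 mural and 26 of 26 myeloid cells.

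Ctsl (chromosome 13, 64359337 to 64370890, minus strand), a broadly active endopeptidase, had its highest mean in matrix cells, 461 ± 132 FPKM (SD, n = 7 captures). The matrix means were 459, 738 and 447 FPKM at PWD12, 399 and 420.4 at PWD15 and 314 and 451 FPKM at PWD21. Mural means were 144 to 319 FPKM and myeloid means 239.5 to 327 FPKM, and both overlapped the matrix range only at its lower end. Ctsl was lower in mural cells in 5 of 5 captures and in myeloid cells in 4 of 4, with log2 differences of -1.06 (SE 0.34, adjusted p 0.189) and -0.68 (SE 0.38, adjusted p 0.241). Neither passed the limma test.

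Ctsc (chromosome 7, 88278085 to 88310888, plus strand) encodes dipeptidyl peptidase I, which activates the serine proteases of granules. Its myeloid means were 869, 455, 686 and 831 FPKM in the 4 captures with at least 3 myeloid cells. Its mural means were 95.5, 268, 97.5, 114 and 145 FPKM, and its matrix means spread from 13.6 to 320.3 FPKM. No myeloid mean fell within the range of another kind, while those of mural and matrix cells overlapped. The log2 difference of myeloid cells was 4.19 (SE 0.71, adjusted p 0.00225) from matrix and 3.01 (SE 0.83, adjusted p 0.0452) from mural cells. The latter was lost in 13 of 21 alternatives, among them each capture left out in turn, with adjusted p values of 0.0545 to 0.0891. Ctsc was detected in 100 of 198 matrix cells (50.5%), 43 of 57 mural cells (75.4%) and all 26 myeloid cells.

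Ctsh, Ctsz and Ctsa overlapped between kinds or did not pass the test. Ctsh (chromosome 9, 90054152 to 90076089, plus strand), an aminopeptidase, had means of 130.4 to 397 FPKM in matrix, 48.1 to 219 in mural and 163 to 572 FPKM in myeloid cells. It was found in 24 of 57 mural cells (42.1%), against 165 of 198 matrix cells (83.3%) and 25 of 26 myeloid cells (96.2%). Its log2 difference, myeloid minus mural, was 1.84 with an adjusted p of 0.0630 in limma.

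Ctsz (chromosome 2, 174427493 to 174439039, minus strand), a carboxypeptidase, had means of 137 to 315 FPKM in matrix, 122 to 440.0 in mural and 215 to 889.5 FPKM in myeloid cells. Its 3 log2 differences were 0.99 (myeloid minus matrix), 0.06 (mural minus matrix) and 0.93 (myeloid minus mural), and none passed the test.

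Ctsd (chromosome 7, 142375911 to 142388038, minus strand), the main aspartic protease of the lysosome, spread widely among myeloid captures, at 1283 FPKM in PWD12 capture 2, 660.4 in PWD15 capture 2, and 144 and 202 FPKM in the PWD21 captures. In PWD21 capture 2 the mean came from 1 of 3 myeloid cells, at 605 FPKM. Matrix means were 80.6 to 185 FPKM, which the lowest myeloid mean entered, and mural means were 15.6 to 125 FPKM. The log2 difference of myeloid cells was 3.25 (SE 0.77, adjusted p 0.0222) from mural and 1.93 (SE 0.66, adjusted p 0.0631) from matrix cells. The first was lost in 5 of 21 alternatives, among them without PWD12 capture 2 (adjusted p 0.0980) and without PWD21 capture 1 (0.0695). Ctsd was detected in 33 of 57 mural cells (57.9%), 168 of 198 matrix cells (84.8%) and 22 of 26 myeloid cells (84.6%).

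Ctsa (chromosome 2, 164832873 to 164841032, plus strand), a carboxypeptidase that also protects Neu1 and Glb1, had myeloid means of 597, 715, 240.1 and 219 FPKM, in the same order of captures. All lay above the matrix means of 107 to 206 FPKM, and mural means of 91.0 to 340.0 FPKM overlapped both. The log2 difference, myeloid minus matrix, was 1.36 (SE 0.47) with an adjusted p of 0.0670 in limma. It was called without PWD21 capture 2 (1.74, adjusted p 0.0372).

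**Figure D3:**
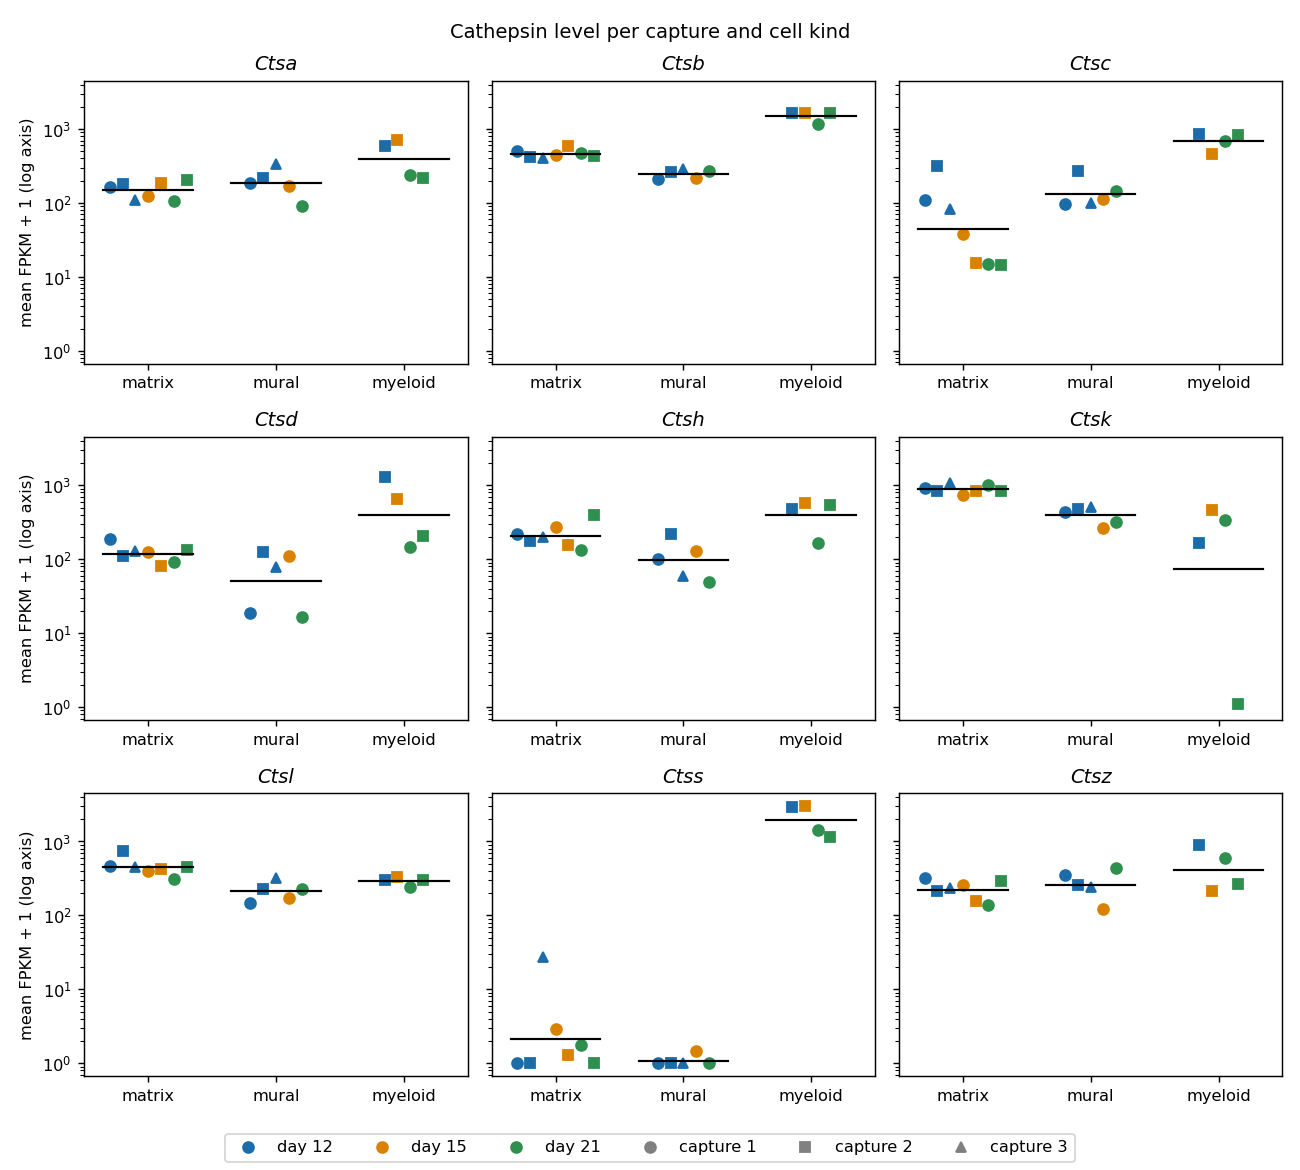
Mean FPKM + 1 of each cathepsin on a log axis in matrix, mural and myeloid cells, with 1 point for each capture with at least 3 cells (colour for the day, shape for the capture) and a line at the mean of the points on the log scale. The myeloid points of Ctss, 1163 to 2991 FPKM, lie above all others, and the matrix points of Ctsk and Ctsb lie above all mural points.

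In terms of makeup, the 9 cathepsins together averaged 2626 ± 265 FPKM in matrix cells (SD, n = 7 captures), 1676 ± 309 in mural cells (n = 5) and 6836 ± 2078 FPKM in myeloid cells (n = 4). These sums were 0.445, 0.272 and 0.902% of the FPKM of protein-coding genes. Ctsk made up 34.02 ± 5.74% of the cathepsin sum in matrix cells, 23.8 ± 3.59% in mural cells and 3.59 ± 3.22% in myeloid cells. It had the widest share in 7 of 7 matrix and 4 of 5 mural captures, and in PWD21 capture 1 the mural share of Ctsz, 28.3%, was above that of Ctsk, 20.7%. Ctss made up 30.05 ± 6.21% in myeloid cells, followed by Ctsb at 23.4 ± 6.21% and Ctsc at 11.2 ± 4.59%. Ctss was above Ctsb in 3 of 4 myeloid captures, and in PWD21 capture 2 Ctsb made up 32.2% and Ctss 22.4%. In matrix cells Ctsb (18.01 ± 3.56%) and Ctsl (17.4 ± 3.44%) were within 1 SD of each other, and so were Ctsz (8.64%) and Ctsh (8.41%).

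In single cells, Ctsk was the highest cathepsin of 101 of 198 matrix cells (51.01%) and of 19 of 57 mural cells (33.3%). Ctss led in 14 of 26 myeloid cells (53.8%) and Ctsb in 7. The median number of cathepsins detected per cell was 7 in matrix, 6 in mural and 8 in myeloid cells, and 11 of 26 myeloid cells had all 9.

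**Figure D4:**
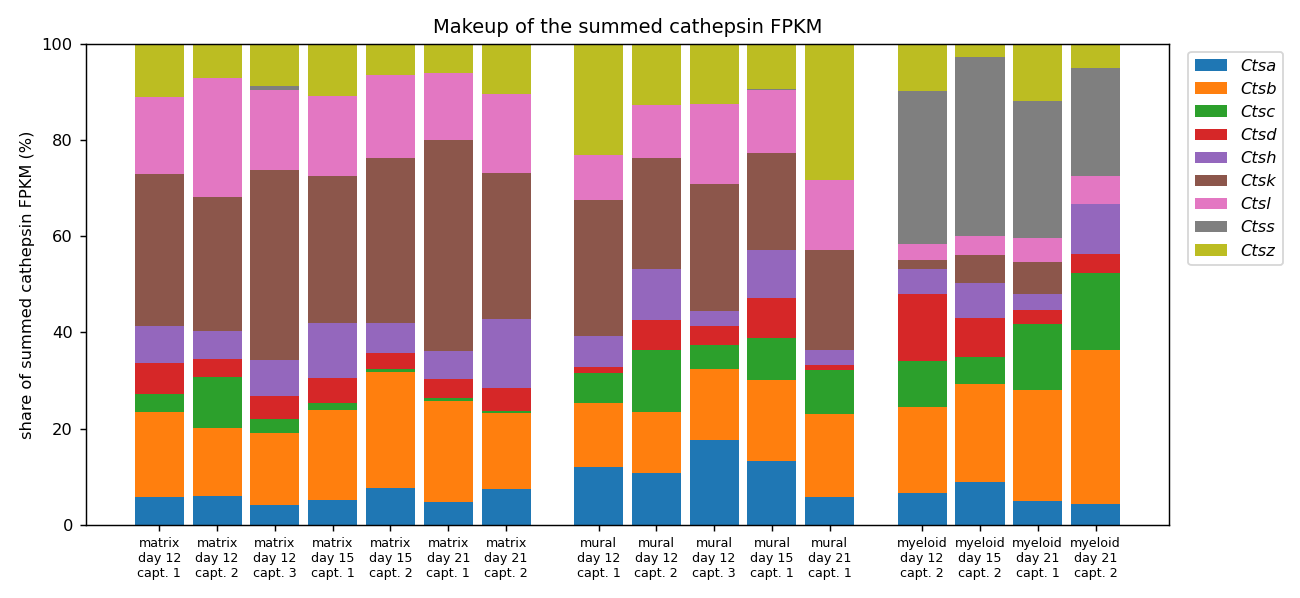
Share of each cathepsin in the summed cathepsin FPKM (%), as 1 stacked bar for each capture and kind with at least 3 cells. Ctsk, with a mean of 34.02%, is the widest band in each matrix bar, and Ctss, nearly absent from the other kinds, has a mean of 30.05% in myeloid bars.

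Between days the comparison was made in matrix cells, the kind with at least 3 cells in all 7 captures, with limma over 13552 genes. No cathepsin passed the test. Of all genes, 0% passed between PWD15 and PWD12, 0.00738% (1 gene, Gm2564, named after its value was seen) between PWD21 and PWD12, and 0% between PWD21 and PWD15. At an unadjusted p under 0.05 there were 791, 968 and 745 genes. Ctsk, Ctsb, Ctsl, Ctsh, Ctsz, Ctsa and Ctsd moved by at most 0.51 on the log2 scale between any pair of days. Ctss differed by -0.64, -1.17 and -0.53, on levels near 0.

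Ctsc was the exception in size. Its matrix means were 107, 320.3 and 81.01 FPKM in the PWD12 captures, 37.2 and 14.6 at PWD15, and 13.9 and 13.6 FPKM at PWD21. Each PWD12 capture lay above each later one, which held for 5.11% of all genes. The log2 difference from PWD12 was -2.54 at PWD15 (SE 0.67, adjusted p 0.612) and -3.27 at PWD21 (SE 0.67, adjusted p 0.252), and neither passed in limma. With the mean of log2 values per cell in place of the log2 of the mean, both were called, at -3.52 (adjusted p 0.0298) and -4.03 (adjusted p 0.00367). That setting called 28 and 70 of 13552 genes. It was 1 of 17 alternatives, and in the other 16 neither difference passed, with adjusted p values of up to 0.931 and 0.760 in limma.

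The share of matrix cells with any Ctsc was 59 of 74 (79.7%) at PWD12, 30 of 72 (41.7%) at PWD15 and 11 of 52 (21.2%) at PWD21. At a limit of 10 FPKM it was 64.9, 19.4 and 11.5%. The median of estimated fragments was 1641280, 978728 and 2257830 on these days. It fell from PWD12 to PWD15, as the share did, and rose from PWD15 to PWD21, while the share fell. Depth as a source of the change was not tested. In mural cells the shares with any Ctsc were 24 of 30 (80%), 14 of 19 (73.7%) and 5 of 8 (62.5%), and all myeloid cells held it on each day.

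Whether the kinds changed differently was tested on the same 16 means in a limma fit with terms for the later days, added after the values were seen. The difference of mural from matrix cells in Ctsc was larger on the later days than at PWD12 by 2.54 (SE 0.85, adjusted p 1 in limma), with 0% of all genes called. That of myeloid from matrix cells was larger by 3.72 (SE 1.02, adjusted p 0.305), with 0.128% of all genes called. The unadjusted p of the mural difference was 0.0154 in limma, and 579 of 14022 genes had an unadjusted p under 0.05. Mural means of the later days came from PWD15 capture 1 and PWD21 capture 1 alone. For myeloid cells at PWD12, capture 2 alone entered the fit (11 cells, against 2 and 1 in captures 1 and 3). Its matrix mean of Ctsc, 320.3 FPKM, was far above those of captures 1 and 3 (107 and 81.01 FPKM), which makes its difference smaller. Its myeloid mean, 869 FPKM, was also the highest of those fitted. The change of 3.72 therefore cannot be told from a trait of that capture, and nothing is concluded from it.

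**Figure D5:**
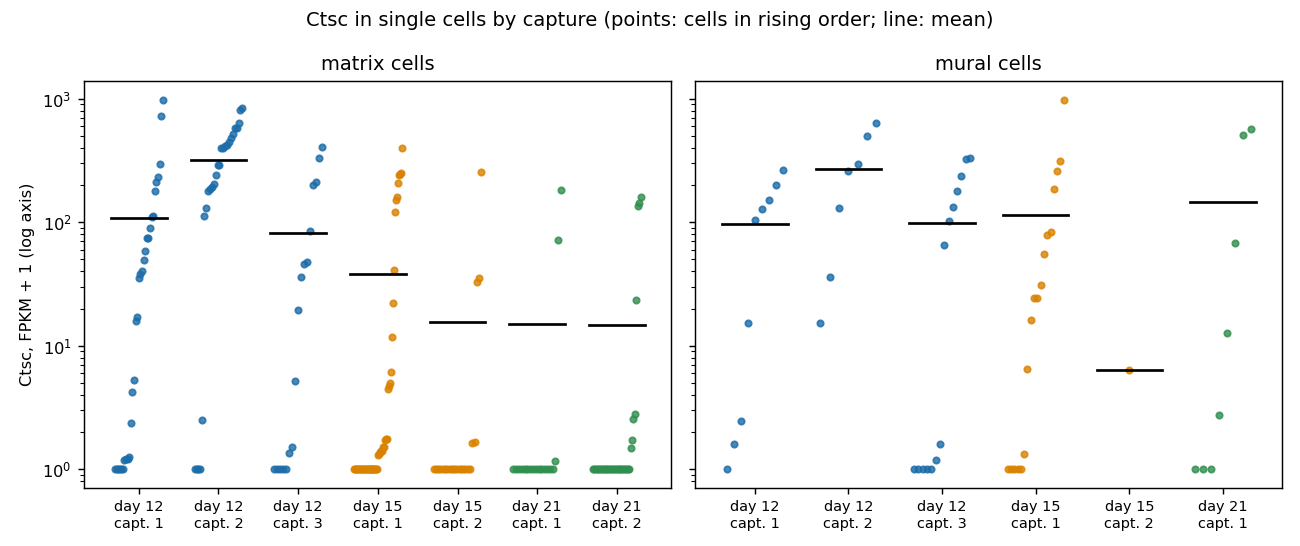
Ctsc in single matrix cells (left) and mural cells (right) of each capture, as FPKM + 1 on a log axis, with cells in rising order and a line at the mean. Detection in matrix cells goes from 59 of 74 at PWD12 to 30 of 72 at PWD15 and 11 of 52 at PWD21, and each mural capture holds cells with Ctsc.

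Other genes of the pathway were taken from 3 lists. Of 13 further cathepsins 3 passed the filter on low values, Ctse, Ctsf and Ctso, and none was called between kinds. Of 10 inhibitors 4 were tested, and 1 of them, Cst3, the secreted cystatin C, was called higher in myeloid cells. Of all genes 15.7% were called against matrix and 6.55% against mural cells. It averaged 1029.8 ± 335 FPKM in matrix, 1155 ± 317 in mural and 3375 ± 646 FPKM in myeloid cells, with log2 differences of 1.69 (SE 0.31, adjusted p 0.00363) and 1.47 (adjusted p 0.0272) against matrix and mural cells. Cstb, the cytosolic stefin B, had 1.11 against matrix cells (adjusted p 0.0940).

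Of 15 genes of activation and sorting, 2 were higher and 1 lower in myeloid than in matrix cells, a share of 3 in 15 that is near the 15.7% of all genes called. Lgmn, the asparaginyl endopeptidase that processes several cathepsin precursors, averaged 89.9 FPKM in matrix, 147 in mural and 1133 FPKM in myeloid cells, with a log2 difference from matrix cells of 3.29 (adjusted p 0.0068 in limma). Cd74, the invariant chain that Ctss trims, averaged 3.16, 0.293 and 3741 FPKM in the same order, with a difference of 10.13 (adjusted p 6.16e-06). Its myeloid mean came from part of the cells, since the median over myeloid cells was 19.2 FPKM and 61.5% of them had any Cd74. Igf2r, a receptor that carries mannose 6-phosphate tagged enzymes to the lysosome, ran the other way, at 38.2, 46.1 and 3.496 FPKM, with a difference of -3.06 (adjusted p 0.00846). Against mural cells Cd74 was called higher (10.97, adjusted p 2.05e-05) and Igf2r lower (-3.08, adjusted p 0.0303), while Lgmn, at 2.66, had an adjusted p of 0.0623. Of all genes 6.55% were called between myeloid and mural cells. None of the 15 was called between mural and matrix cells, against 1.05% of all genes. The median log2 difference of this list was 0.51, myeloid minus matrix, beside -0.85 over all genes.

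The genes whose 16 means ranked most like those of each member were found among 6774 genes averaging 10 FPKM or more. Spearman's rho is given as a description over means that share captures. For Ctss these were C1qa and Mpeg1 (both 0.88) and Cd74, for Ctsd Lyz2 (0.91) and Ctsh (0.89), and for Ctsb Hacd4 (0.92), Rin2 and Cd72. Those of Ctsk were Fstl1 (0.91), Krtcap2 and Mn1, and those of Ctsl were Cxcl12 (0.90), Cd63 and Gxylt2. Ctsc ranked most like Tmsb4x (0.92) and Ctsa most like Rps9 (0.89). Ctsz had the weakest likeness, with H2-DMb1 at 0.72.

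The limits of the kinds left few cells in doubt for the myeloid genes. The lowest Tyrobp of a myeloid cell was 1343 FPKM and the highest of a matrix cell 9.96 FPKM. In 2 cells Tyrobp was between 50 and 500 FPKM, and both had a Ctss of 0. In the 3 matrix cells with the lowest Col1a1 the median of Ctsk was 0 FPKM, and it was 4.03 FPKM in 2 cells with a Col1a1 of 500 to under 1000 FPKM. In 3 mural cells with an Rgs5 of 500 to 1000 FPKM the median of Ctsk was 445 FPKM, against 893 FPKM in the 5 cells with an Rgs5 of 100 to under 500 FPKM.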

How the data were processed

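The labels and the paper's methods give single tdTomato-high cells captured by C1, with full-length cDNA. The deposited values are FPKM per gene and cell, which the authors computed with RSEM and Bowtie 1.0.0 on mm10 with GENCODE mouse release 13. Gene names and positions come from GENCODE release 21, which held 50376 of the identifiers, and 224 had no record. FPKM does not tell RNA lost in capture from RNA not present.

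The plan assumed counts, so limma on log2(FPKM + 1) was used in place of a count test, on genes averaging 1 FPKM or more in the means fitted. Fragments per cell were estimated from the steps between values on 5032 single-transcript genes with an assumed fragment length of 300 bp, and depth and detection limits carry that error. Cells were kept at or above the study's stated minimum of fragments, with no more than 11000 genes and a mitochondrial share of FPKM of up to 15%. The methods state that wells with more than 1 cell were removed by microscopy, and no doublet caller was run. Detection means a value above 0, and intervals of shares cover counting error only. Tests were two-sided with 0.05 as the threshold of the adjusted p, and the fit was tested on simulated data.

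The members, lists and tests were chosen with earlier results of these data known. Named genes are the 9 members, members of the pathway lists that averaged 10 FPKM or more or were called, and the 3 genes most like each member. The alternatives were the pseudocount, the filters on genes and cells, the mean or median over cells, weights, rescaling, stricter limits of the kinds, the block, a fit on pairs of kinds and each capture left out. The test of the kinds between days and the splits by Col1a1 were added after seeing the data. Tests used limma 3.58.1 in R 4.3.3. Tables and plots were made in Python 3.11.15 with pandas 2.3.3, numpy 2.4.6, scipy 1.17.1 and matplotlib 3.10.9. Promoter sequences are from RefSeq (GRCm38.p6).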

Additional observations from a re-analysis of the deposited data

Results flagged for a closer look

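Of 27 groups of capture means, each a cathepsin in 1 kind, 6 held a capture that stood apart from the others. The rule used flags about 1 in 20 groups of independent, normal values. Some means here lie at or near 0 and members share the same cells, so the 6 are a list and no excess over chance is claimed. PWD12 capture 2 was high for Ctsc in matrix cells (320.3 FPKM) and in mural cells (268 FPKM), and for Ctsl in matrix cells (738 FPKM). PWD12 capture 3 was high for Ctss in matrix cells (26.3 FPKM), which came from 1 cell. Ctss in mural cells was highest in PWD15 capture 1 at 0.448 FPKM, which came from 1 cell at 8.07 FPKM. Ctsb in myeloid cells was lowest in PWD21 capture 1 at 1154 FPKM.

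In 2 members the difference of mural from matrix cells had opposite signs on different days. For Ctsa the mean log2 difference was 0.70 at PWD12 (3 captures) and 0.45 at PWD15 (1 capture) but -0.23 at PWD21 (1 capture). For Ctsz it was 0.18 at PWD12 and 1.67 at PWD21 (1 capture) but -1.07 at PWD15 (1 capture). Between the later days as 1 group and PWD12 the change of the difference was -0.64 (SE 0.84) for Ctsa and -0.11 (SE 0.89) for Ctsz, with an adjusted p of 1 in limma for both. The single days were not tested against each other.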

How the results depend on the processing

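Over all alternatives, 564 differences of single cathepsins kept their direction and side of the threshold, 22 passed it only in an alternative, 23 passed it only in the values reported, and 9 changed sign. Ctss against both other kinds and Ctsc against matrix cells passed in all 21 alternatives, and Ctsb against mural cells in all but the pairwise fit (adjusted p 0.0832). Ctsk, myeloid minus matrix, lost its call with no filter on genes (adjusted p 0.171), in the fit on this pair of kinds (0.0826) and without PWD12 replicate 2 (0.0722), and Ctsb, myeloid minus matrix, with means of at least 1 cell (0.0627). Ctsd, myeloid minus matrix, was called without PWD12 replicate 1 (adjusted p 0.0456).

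The 9 sign changes were all in differences that did not pass. For mural minus matrix, Ctsz became -0.17 with the mean of log2 values, -0.57 with the median over cells, -1.18 with means of at least 1 cell, -0.079 with weights and -0.078 after rescaling, and it ran from -0.30 (without PWD21 replicate 1) to 0.32 with a capture left out. Ctss became 0.039 with the median and Ctsa -1.01 with means of at least 1 cell. For myeloid minus mural, Ctsl became -0.26 with the median.

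Counts of genes called depended on the setting. Myeloid minus matrix gave 2200 genes, against 1048 at a pseudocount of 10, 1173 with no filter, 583 with the median and 861 in the pairwise fit. The count rose to 3042 without the capture as a block and to 2934 at a pseudocount of 0.1. With a capture left out there were 1287 (without PWD21 replicate 1) to 1951 genes and 3 to 5 cathepsins. Mural minus matrix gave 147, against 82 at a pseudocount of 0.1, 48 with no filter, 433 with the mean of log2 values, 881 with weights and 236 in the pairwise fit, and 47 (without PWD15 replicate 1) to 154 with a capture left out. Its cathepsins went from 0 to 3 with the mean of log2 values, 1 with the median, 2 with weights and 1 (Ctsk, log2 -1.20, adjusted p 0.0182) in the pairwise fit. Myeloid minus mural gave 918, against 530 at a pseudocount of 10, 497 with no filter, 339 with the median, 609 with all cells, 1484 with the Col1a1 limit and 308 in the pairwise fit, and 466 (without PWD21 replicate 1) to 973 genes and 2 to 3 cathepsins with a capture left out. Its 4 cathepsins became 2 with no filter or the median and 1 in the pairwise fit. Without the capture as a block, the counts were 252 genes for mural minus matrix and 2031 for myeloid minus mural, with 5, 0 and 5 cathepsins for myeloid minus matrix, mural minus matrix and myeloid minus mural.

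Between days, PWD15 minus PWD12 gave 28 genes and 1 cathepsin with the mean of log2 values and 1 gene with weights. PWD21 minus PWD12 gave 70 genes and 1 cathepsin with the mean of log2 values, 3 genes with doubled limits of the kinds, and 0 at a pseudocount of 0.1, with no filter, with weights, after rescaling and with the capture number as a block. PWD21 minus PWD15 gave 1 gene at a pseudocount of 10. Every day comparison gave 0 genes with a capture left out. Deviations of captures with the same number from their day's mean correlated at -0.007 to 0.025. With 2 captures each at PWD15 and PWD21, the deviations within such a day mirror each other. These values therefore cannot decide whether the numbers pair captures of different days. Why the counts moved was not tested.

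Of the shares of cells with a member detected, 15 of 54 moved by more than their interval or spread, and so did 2 of 27 shares of the cathepsin sum, Ctsd in matrix cells (6.22% in all cells) and Ctss in mural cells (0.0824%).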

Other observations

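Means of fewer than 3 cells were left out of the tests. In PWD12 capture 3 the only myeloid cell had the highest Ctsz of all myeloid cells, 6126 FPKM, with Ctsb at 4272, Ctss at 4096 and Ctsd at 2827 FPKM, and a Ctsk of 3.94 FPKM. In PWD12 capture 1 the 2 myeloid cells averaged 3252 FPKM of Ctsb and 1509 FPKM of Ctss, and Ctsl was at 37.1 FPKM. The only mural cell of PWD15 capture 2 had Ctsl at 73.2 FPKM and the other cathepsins under 10 FPKM.

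Among the cells of no kind, a cell of PWD15 capture 1 had a Ctsc of 1264 and a Ctsb of 1254 FPKM with a Ctss of 19.6 FPKM and a Col1a1 of 11348 FPKM, and another had a Ctsk of 1954 FPKM with a Tyrobp of 153 FPKM. Acp5, a phosphatase of osteoclasts and macrophages, reached 10 FPKM in 8 myeloid cells, and 1 of these also had a Ctsk of at least 10 FPKM.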
